A study of Mus musculus with 8 samples.

Results

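Egr2, which encodes the zinc-finger transcription factor also called Krox20, and 7 further genes of neural crest-derived glia (Sox10, Erbb3, Foxs1, Fabp7, Dhh, Ednrb and Pou3f1) were followed across 8 RNA sequencing libraries of mouse embryos. The genes were taken by name: 8 of the 38355 genes in the count files carry these symbols, and all 8 passed the filter on low counts. The 8 genes were chosen by name with earlier results of the KO and WT comparison of these libraries in view, among them the higher Egr2 counts in mutants. The differences of these genes between mutants and wild types are therefore given as a description, with their standard errors (SE) but without p-values. Nothing is read from whether they passed the threshold used for all genes.

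There were 4 libraries of Prdm12-/- embryos (KO) and 4 libraries of wild-type embryos (WT). Both groups were of the C57Bl6 strain, were taken at embryonic day E11.5 and held dorsal root ganglia together with spinal cord, from the thoracic level. Prdm12 encodes a PRDM-family zinc-finger factor of the developing sensory lineage, and the comparison asks which genes depend on it in somatosensory neurons. The series text speaks of triplicates, while 4 libraries per group are labelled and all were used. The labels give neither the deleted part of Prdm12 nor whether a library is 1 embryo or a pool, so p-values measure only the spread between these libraries, which may be technical.

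Library totals were 23088908 to 27567399 counts in KO and 25490087 to 67782435 counts in WT, where WT replicate 1 had 2.55 times the median total of the other libraries. Prdm12 was at 0.962 to 1.55 CPM (counts scaled by normalised library size) in KO and at 22.2 to 39.6 CPM in WT. Of 16068 genes tested with edgeR's quasi-likelihood test (Benjamini-Hochberg adjusted p under 0.05), 48 were called, 9 higher and 39 lower in KO. Markers of both labelled tissues were detected in all libraries: Tlx2, a homeobox factor of crest-derived neurons, at 8.25 to 10.2 CPM in KO and 13.1 to 16.9 CPM in WT, and Mnx1, a homeobox factor of spinal motor neurons, at 10.6 to 14.9 CPM in KO and 11.03 to 13.2 CPM in WT. They do not give the share of each tissue.

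Neural crest cells that enter the peripheral nerves become Schwann cell precursors and, in the ganglia, satellite glia. SOX10 is the factor that this lineage keeps from the migrating crest onward, and it acts upstream of Erbb3, the receptor through which glial precursors read neuregulin from axons. Egr2 is known in nerves for driving the myelin programme of Schwann cells. Before that it marks the boundary caps, clusters of crest cells where nerve roots enter and leave the spinal cord, and it also marks segments of the early hindbrain.

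The sequence just before an alternative start of Egr2 is shown because Egr2 was the gene of the 8 whose levels separated the groups. RefSeq promoters (GRCm38.p6, the same assembly as mm10) were matched for 4 of the 8 genes, Egr2, Fabp7, Dhh and Ednrb, with 5 alternative starts for Egr2. The 250 bases before the start at 67537869 on the plus strand of chromosome 10, chr10:67537619-67537868, overlap 0 exons of Egr2 in GENCODE M21. Capitals mark a CArG box, the binding sequence of serum response factor that many immediate early genes carry, and the letters GACGTCA, part of the cyclic AMP response element.
Egr2: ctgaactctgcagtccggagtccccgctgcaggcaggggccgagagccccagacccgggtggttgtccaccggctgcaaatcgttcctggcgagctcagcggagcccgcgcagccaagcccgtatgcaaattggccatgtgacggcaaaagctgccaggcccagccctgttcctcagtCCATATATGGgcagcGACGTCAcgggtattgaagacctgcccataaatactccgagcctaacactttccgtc

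The CArG box CCATATATGG lay 72 to 63 bases before the Egr2 start at 67537869 and GACGTCA lay 57 to 51 bases before it. That start lies inside the annotated Egr2 gene, 67535475 to 67542188. The window before the most upstream of the 5 starts, 67535499, held neither sequence. A CArG box was in 1.47% and GACGTCA in 2.78% of all 32851 RefSeq windows of 250 bases, read on both strands. The 5 Egr2 windows held 2 distinct CArG boxes, since 3 of the windows overlap and share the one shown, while the other box lies in 1 further window. The EGR binding letters GCGGGGGCG and GCGTGGGCG, in 2.57% and 0.536% of all windows, and the SOX letters ACAAAG and ACAATG, in 16.5% and 10.7%, were found in no window of the 4 genes. A match of letters is a description and no evidence of binding.

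Egr2 (ENSMUSG00000037868, mm10 chromosome 10, 67535475 to 67542188, plus strand) was about 2 times as abundant in KO libraries as in WT libraries. It stood at 3.32, 4.28, 3.60 and 3.76 CPM in KO replicates 1 to 4, and at 1.72, 1.70, 2.00 and 1.66 CPM in WT replicates 1 to 4. Every KO library lay above every WT library, and the groups did not overlap. These levels rested on 92, 107, 96 and 86 reads in KO and on 116, 46, 51 and 47 reads in WT, so Egr2 was a low-abundance transcript in this tissue. The means were 3.74 ± 0.404 CPM in KO and 1.77 ± 0.156 CPM in WT (SD, n = 4 each), a log2 fold change of 1.08 (SE 0.13) or 2.12-fold.

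Egr2 was the 1 gene of the 8 past the threshold, where 0.299% of all tested genes were called in either direction and 0.0560% were called higher. It was also the 1 gene of the 8 without overlap between groups, a pattern that 4.14% of tested genes showed in either direction, 1.69% with all KO libraries higher and 2.45% with all KO libraries lower. Since Egr2 was chosen with this contrast known, nothing is read from either count. The log2 fold change lay between 1.01 and 1.14 whichever library was left out. The tissue was sequenced in bulk, so more cells with Egr2 and more Egr2 RNA per cell cannot be told apart.

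**Figure D1:**
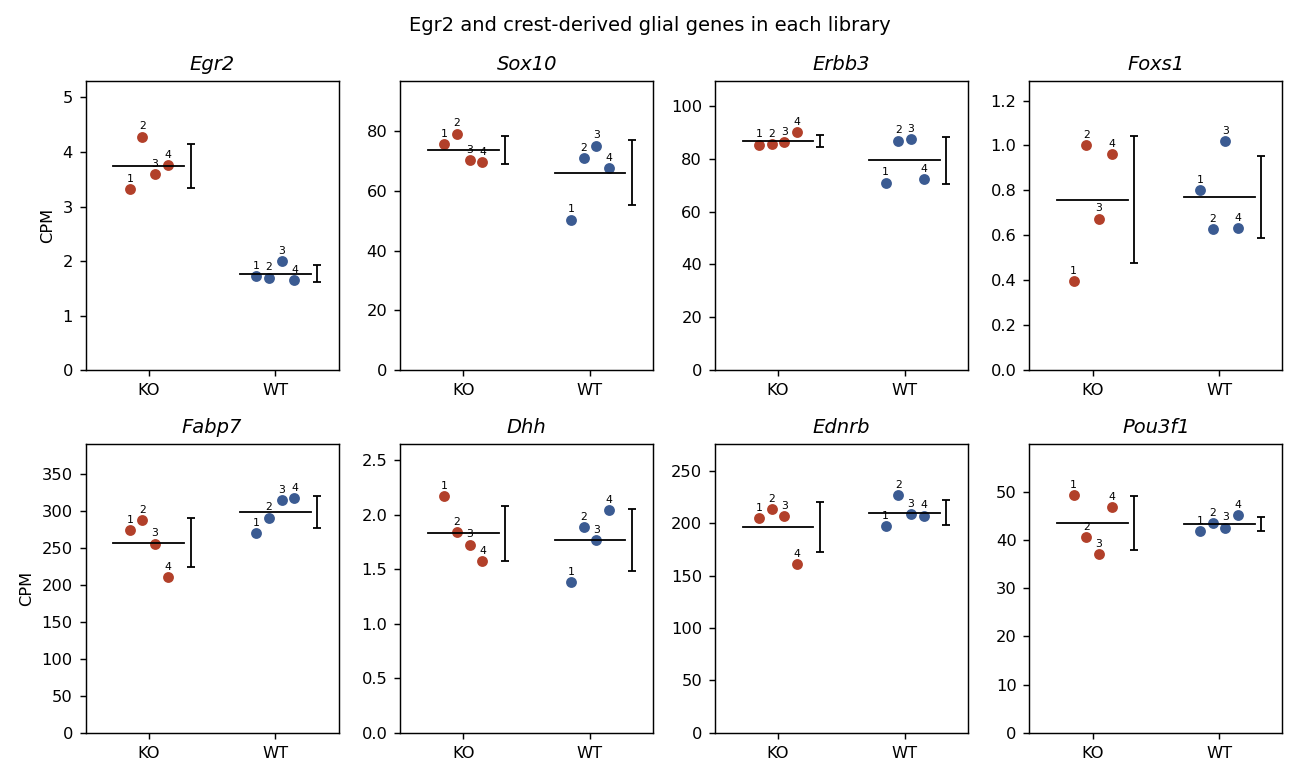
Level of each of the 8 genes in CPM (vertical axes, from 0) in KO and WT libraries; points are libraries numbered by replicate, lines are group means and bars are 1 SD (n = 4). Egr2 separates KO (3.32 to 4.28 CPM) from WT (1.66 to 2.00 CPM), while the groups of the other 7 genes overlap.

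Sox10 (ENSMUSG00000033006, chromosome 15, 79154908 to 79165240, minus strand), the transcription factor that defines the crest glial lineage, was at much the same level in both groups apart from 1 low WT library. It stood at 75.5, 79.1, 70.3 and 69.5 CPM in KO replicates 1 to 4, and at 50.4, 70.9, 75.1 and 67.6 CPM in WT replicates 1 to 4. WT replicate 1, the deepest library, was the lowest of all 8, and the other WT libraries fell within or just below the KO range. Its log2 fold change was 0.16 (SE 0.11), and 0.06 (SE 0.06) without WT replicate 1.

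Erbb3 (ENSMUSG00000018166, chromosome 10, 128567523 to 128589652, minus strand), the neuregulin receptor of glial precursors, was even across KO libraries and split in WT. It stood at 85.4, 85.4, 86.3 and 90.2 CPM in KO replicates 1 to 4, and at 71.0, 86.9, 87.3 and 72.1 CPM in WT replicates 1 to 4. WT replicates 1 and 4 were low and WT replicates 2 and 3 lay within the KO range, so the groups overlapped. The log2 fold change was 0.13 (SE 0.07), and 0.09 (SE 0.06) without WT replicate 1.

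Dhh (ENSMUSG00000023000, chromosome 15, 98891152 to 98898540, minus strand) encodes desert hedgehog, a ligand that Schwann cell precursors secrete. It stood at 2.17, 1.84, 1.72 and 1.57 CPM in KO and at 1.38, 1.88, 1.76 and 2.04 CPM in WT replicates 1 to 4, from 36 to 60 reads per KO library and 45 to 93 reads per WT library. The groups overlapped almost fully, with a log2 fold change of 0.07 (SE 0.17). Dhh had nearly the same read depth as Egr2 in WT. The part of read depth in the Egr2 difference was not tested.

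Pou3f1 (ENSMUSG00000090125, chromosome 4, 124656807 to 124660655, plus strand) encodes OCT6, a POU factor that later prepares Schwann cells for myelination and that is also found in some motor neurons. It stood at 49.3, 40.6, 37.1 and 46.7 CPM in KO and at 41.8, 43.4, 42.6 and 45.2 CPM in WT replicates 1 to 4. The KO libraries reached both above and below the WT libraries, and the log2 fold change was 0.01 (SE 0.08). Their SD of log2 CPM was 0.188 in KO and 0.048 in WT, where the median over all tested genes was 0.106 in KO and 0.104 in WT.

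Foxs1 (ENSMUSG00000074676, chromosome 2, 152931898 to 152933208, minus strand), a forkhead factor of early sensory ganglia and of pericytes, was the least well measured of the 8. It stood at 0.397, 1.00, 0.675 and 0.962 CPM in KO and at 0.802, 0.627, 1.02 and 0.634 CPM in WT replicates 1 to 4. These levels rested on 11 to 25 reads per KO library and 17 to 54 reads per WT library, and the groups overlapped. The log2 fold change was −0.04 with an SE of 0.29, the largest SE of the 8, so changes larger than the SE could also have been missed. Its SD of log2 CPM was 0.559 in KO and 0.307 in WT.

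Ednrb (ENSMUSG00000022122, chromosome 14, 103814625 to 103844402, minus strand), the endothelin receptor that crest cells and their glial and melanocyte descendants need, was high in all libraries. It stood at 205, 213, 207 and 161 CPM in KO and at 197, 227, 209 and 207 CPM in WT replicates 1 to 4. KO replicate 4 was the lowest of all libraries and the other 3 KO libraries fell within the WT range. Its log2 fold change was −0.09 (SE 0.08), and −0.01 without KO replicate 4.

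Fabp7 (ENSMUSG00000019874, chromosome 10, 57784881 to 57788450, plus strand) encodes the brain fatty-acid-binding protein of Schwann cell precursors, satellite glia and neural tube radial glia. It stood at 275, 288, 256 and 211 CPM in KO and at 270, 291, 314 and 317 CPM in WT replicates 1 to 4. WT replicates 2, 3 and 4 lay above all KO libraries and KO replicates 3 and 4 below all WT libraries, so the overlap came down to KO replicates 1 and 2 with WT replicate 1. The log2 fold change of −0.21 (SE 0.09) was the lowest of the 8, and it was −0.13 without KO replicate 4.

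Of the 8 genes, 5 had log2 fold changes above 0 and 3 below 0, with a median of 0.04 beside −0.003 over all tested genes. Apart from Egr2, the log2 fold changes lay within −0.21 and 0.16. Leaving out single libraries turned the sign for Foxs1, Dhh and Pou3f1, each of which lay close to 0. The sign held in all such fits for Egr2, Sox10, Erbb3, Ednrb and Fabp7.

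**Figure D2:**
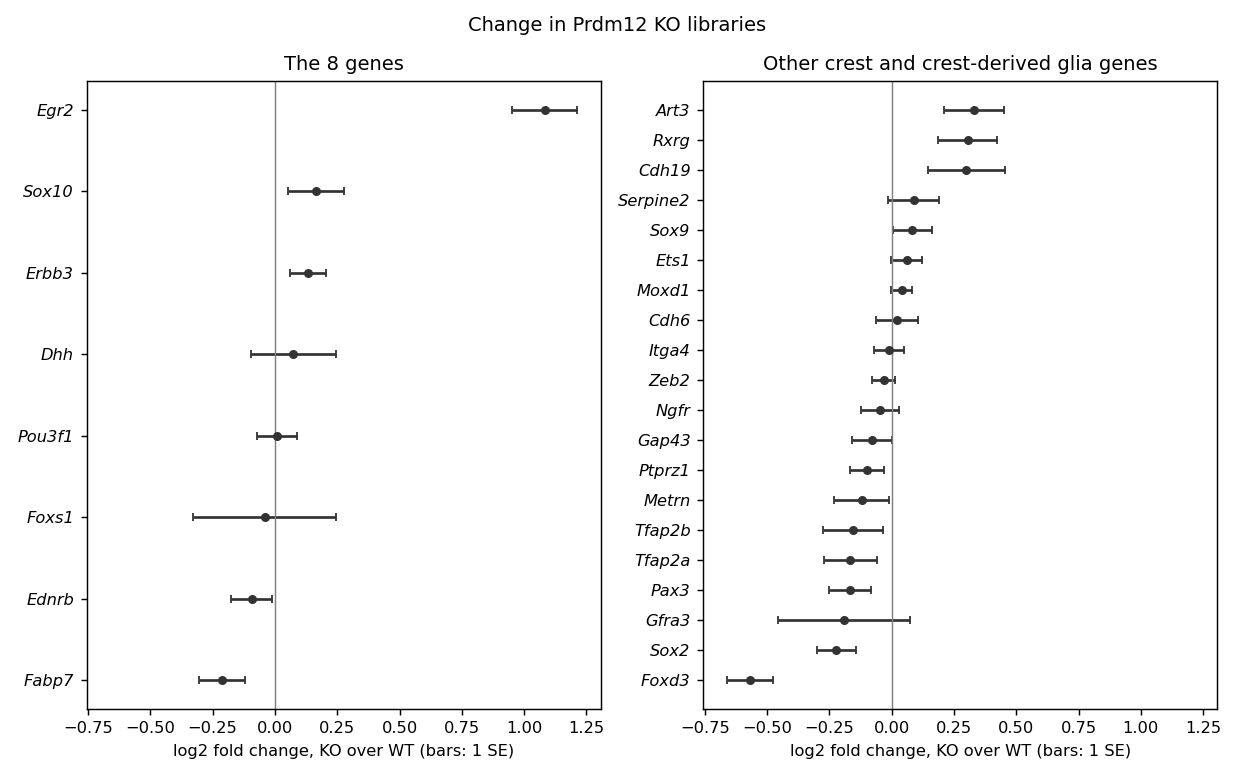
Log2 fold change of KO over WT (horizontal axes) for the 8 genes on the left and for other crest and crest-derived glia genes on the right; points are edgeR estimates and bars are 1 SE. Egr2 stands at 1.08 while the other 7 genes lie between −0.21 and 0.16, and Art3 (0.33) and Foxd3 (−0.57) lie at the ends of the right panel.

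Levels of different genes were compared per kilobase of exon (RPKM, from the union of annotated exons). Fabp7 was the most abundant, at 206 ± 26.8 RPKM in KO and 239 ± 17.5 RPKM in WT, followed by Ednrb at 46.1 ± 5.60 in KO and 49.2 ± 2.85 in WT (SD, n = 4 each). Sox10 was at 24.1 ± 1.49 RPKM in KO and 21.6 ± 3.56 in WT, Erbb3 at 14.4 ± 0.377 in KO and 13.2 ± 1.49 in WT, and Pou3f1 at 11.3 ± 1.45 in KO and 11.2 ± 0.375 in WT. These 5 genes kept the same order in both groups, and the library ranges of neighbours in that order did not overlap.

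The other 3 genes were far lower. Foxs1 was at 0.579 ± 0.215 RPKM in KO and 0.588 ± 0.141 in WT, Egr2 at 1.10 ± 0.119 in KO and 0.521 ± 0.0459 in WT, and Dhh at 0.415 ± 0.0573 in KO and 0.402 ± 0.0640 in WT (SD, n = 4 each). In WT the ranges of Foxs1 and Egr2 overlapped, so their order there is not settled by these libraries. In KO every library had Egr2 above the highest Foxs1 value.

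**Figure D3:**
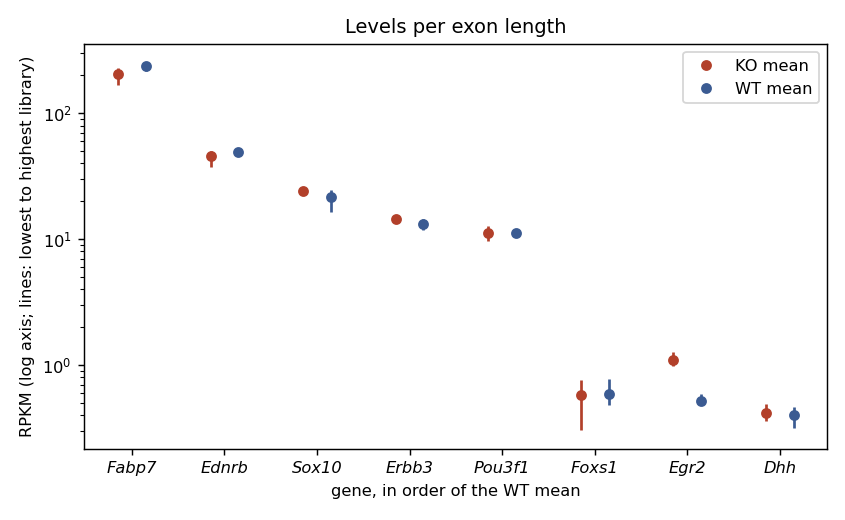
Level per exon length in RPKM (vertical log axis) for the 8 genes in order of their WT mean; points are group means and lines run from the lowest to the highest of 4 libraries. Levels run from 239 RPKM for Fabp7 to 0.402 RPKM for Dhh in WT, and Egr2 is the gene whose KO and WT lines are apart.

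Because Sox10 marks crest glia, the other genes were also set against Sox10 within each library, as percent of its level per exon length. Egr2 was at 3.95, 4.86, 4.60 and 4.86% of Sox10 in KO replicates 1 to 4, and at 3.07, 2.15, 2.39 and 2.20% in WT replicates 1 to 4. The groups did not overlap, and the KO mean was 1.86 times the WT mean. On this scale 0.131% of tested genes had all KO libraries higher and 5.86% all KO libraries lower. The ratio of Erbb3 to Sox10 was 60.0 ± 4.94% in KO and 61.7 ± 7.33% in WT, and that of Dhh 1.72 ± 0.189% in KO and 1.87 ± 0.192% in WT (SD, n = 4 each), each with overlap.

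Ednrb, Foxs1, Pou3f1 and Sox8 relative to Sox10 overlapped between the groups. Fabp7 relative to Sox10 was 741 to 888% in KO and 1002 to 1311% in WT, without overlap. Foxd3, a crest factor that also marks spinal V1 interneurons, was at 31.1 ± 2.66% of Sox10 in KO and 52.2 ± 4.63% in WT (SD, n = 4 each), also without overlap. All KO libraries lower on this scale was a pattern of 5.86% of tested genes. In CPM the groups overlapped for Fabp7, and its highest ratio to Sox10 was in WT replicate 1, where Sox10 was lowest.

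**Figure D4:**
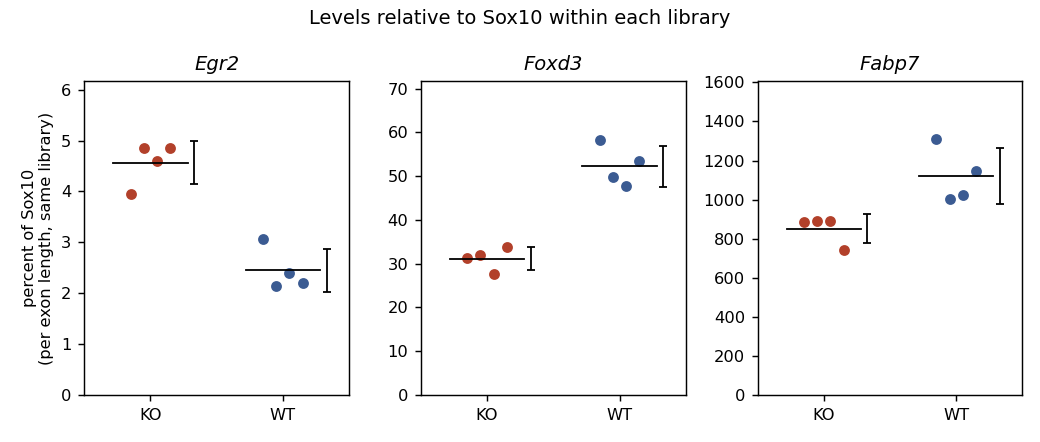
Level of Egr2, Foxd3 and Fabp7 as percent of Sox10 per exon length in the same library (vertical axes, from 0) for KO and WT; points are libraries, lines are group means and bars are 1 SD (n = 4). Egr2 lies higher and Foxd3 and Fabp7 lower in every KO library than in any WT library. Of all tested genes, 0.131% had every KO library higher and 5.86% every KO library lower on this scale. In CPM the groups overlapped for Fabp7. The other genes set against Sox10 overlapped between the groups and are not drawn.

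The wider crest and glia list held 22 other genes, all tested, of which 0 were called higher, 1 was called lower and 21 did not pass. Foxd3 fell, to 17.5 ± 1.93 CPM in KO against 26.0 ± 2.44 CPM in WT (SD, n = 4 each; log2 fold change −0.57, SE 0.09, edgeR adjusted p = 0.0303). The call was lost whichever library other than WT replicate 1 was left out (adjusted p of 0.0517 to 0.139 in those fits, and up to 0.9 over all alternatives). Art3, which encodes an ADP-ribosyltransferase family protein, had all KO libraries above all WT libraries, but its log2 fold change of 0.33 did not pass (edgeR adjusted p = 0.656).

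Sox2, an early glial and neural progenitor factor, had a log2 fold change of −0.22 (edgeR adjusted p = 0.632). The neurotrophin receptor gene Ngfr had 263 to 286 CPM in KO and 236 to 311 CPM in WT. Neither passed. The median log2 fold change of the list was −0.02.

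None of the 10 boundary cap genes was called, and 7 of them had log2 fold changes above 0, and their median was 0.10, or 0.05 if WT replicate 1 was left out. Prss56, a serine protease gene used to mark boundary caps, had 1.57 ± 0.176 CPM in KO and 1.16 ± 0.318 CPM in WT (SD, n = 4 each; log2 fold change 0.47, edgeR adjusted p = 0.77). Sema3b and Wif1, secreted factors of the semaphorin and WNT-inhibitor families, had log2 fold changes of 0.19 and 0.12. Of 12 later Schwann and myelin genes, 9 were tested and none was called. Among them Mbp, the myelin basic protein gene, had a log2 fold change of −0.28 (edgeR adjusted p = 0.332), Ncmap, a myelin-associated membrane protein gene, 0.87 (adjusted p = 0.618) and Pmp22, a peripheral myelin protein gene, 0.12 (adjusted p = 0.913). Ncmap was low, at 0.637 to 1.28 CPM in KO and 0.327 to 0.669 CPM in WT, with overlap (SE 0.30).

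None of the 3 tested relatives and partners of EGR2 passed. Nab2 and Nab1, which encode co-regulators that bind EGR proteins, had log2 fold changes of 0.20 (edgeR adjusted p = 0.623) and 0.09 (adjusted p = 0.897). Egr1 had 9.06 ± 1.84 CPM in KO and 8.20 ± 1.13 CPM in WT (SD, n = 4 each; adjusted p = 0.947). Egr3 was below the filter, at 0.219 to 0.433 CPM in KO and 0.106 to 0.258 CPM in WT, and Egr4 had 0 counts in all 8 libraries.

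EGR2 is also an immediate early factor, induced within minutes of stimulation in many cells. None of 10 tested immediate early genes was called, their median log2 fold change was −0.04, and 3 of 10 were above 0. Btg2, an antiproliferative gene, had −0.15 (edgeR adjusted p = 0.708), Arc, a synaptic plasticity gene, −0.31 (adjusted p = 0.882) and Junb, an AP-1 subunit gene, −0.26 (adjusted p = 0.901). Of 9 hindbrain segment genes none was called, and their median was −0.03. Among them Hoxb1, a homeobox gene, and Fgf3, a growth factor gene, had log2 fold changes of −0.28 and −0.34.

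No call was made among the signalling partners of the receptors and ligands. Of 9 neuregulin and ERBB genes none was called. Erbb2, the co-receptor of ERBB3, had 87.3 ± 9.42 CPM in KO and 82.1 ± 5.29 CPM in WT, and Nrg1, which encodes the axonal ligand, had 13.1 ± 0.847 CPM in KO and 14.6 ± 1.38 CPM in WT (SD, n = 4 each; edgeR adjusted p = 0.923 and 0.855). Erbb4 and Nrg2 had log2 fold changes of −0.24 and 0.26 (adjusted p = 0.809 and 0.884).

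Of 6 tested endothelin genes none was called. Edn3, which encodes the ligand of EDNRB, had 19.7 ± 1.09 CPM in KO and 17.8 ± 0.823 CPM in WT (SD, n = 4 each). Its groups did not overlap but its log2 fold change of 0.14 did not pass (edgeR adjusted p = 0.77). Ece2, a converting enzyme gene, and Ednra, the other receptor gene, had log2 fold changes of 0.08 and 0.05. Of 11 tested hedgehog genes none was called, with Gli1, a pathway target, at a log2 fold change of 0.15, the ligand gene Shh at −0.28 and the antagonist gene Hhip at −0.22. Of 8 relatives none was called, among them Sox8 at 0.28 and the POU factor genes Pou3f3 and Pou3f2 at −0.13 each.

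**Figure D5:**
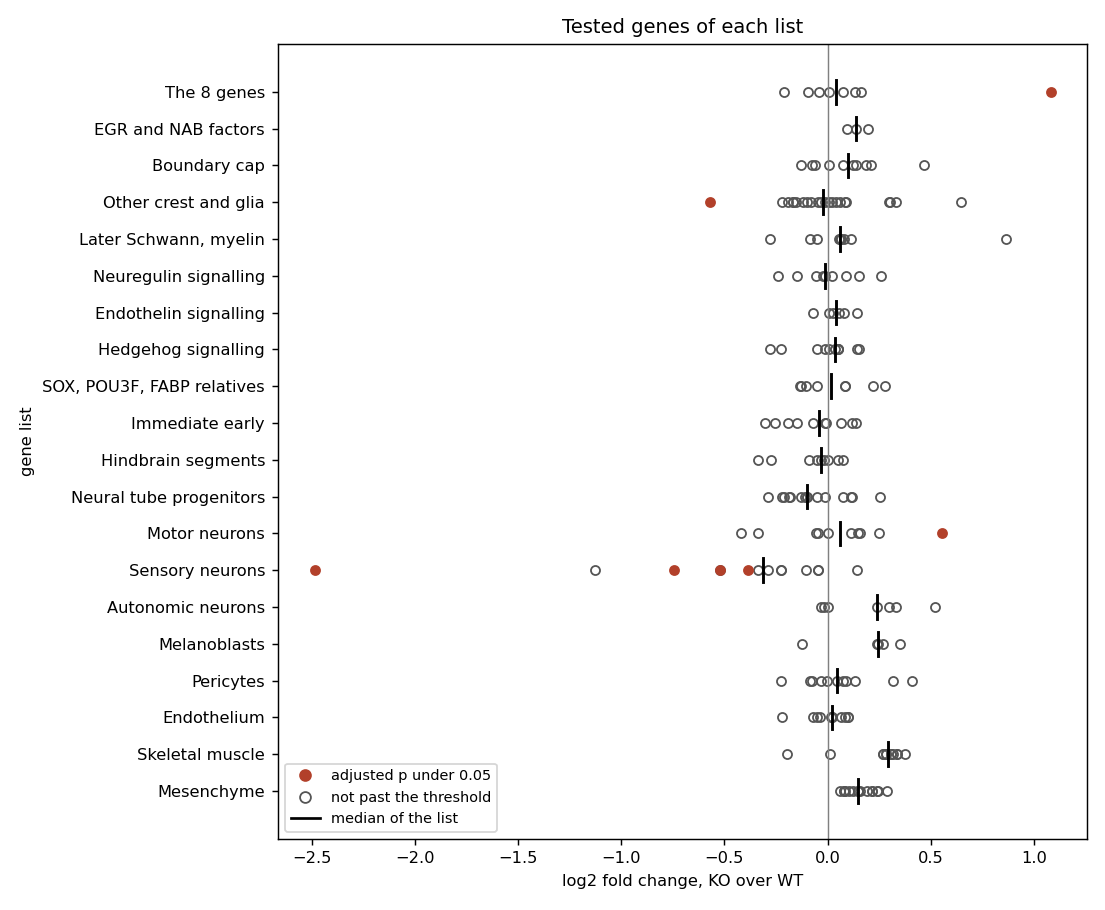
Log2 fold change of KO over WT (horizontal axis) of every tested gene in each list (rows); filled points passed an edgeR adjusted p of 0.05, open points did not, and black bars are list medians. Egr2 is the filled point at 1.08 in the top row, and the sensory neuron row holds 4 filled points below 0.

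Among the lists of markers of other cells in the dissection, those of sensory and motor neurons held called genes. Of 14 tested sensory neuron genes 4 fell, 0 rose and 10 did not pass, and the median was −0.31. Their levels summed to 1303 to 1414 CPM in KO and 1429 to 1777 CPM in WT, of which Nefm, a neurofilament gene that spinal neurons also express, was 817 to 872 CPM in KO and 911 to 1094 CPM in WT. Among the falls, Tlx2 had a log2 fold change of −0.74, Pou4f1, which encodes BRN3A, −0.52 and Eya2, a transcriptional co-activator, −0.39 (edgeR adjusted p = 0.00987, 0.0188 and 0.0303). Each of these 3 calls was lost without KO replicate 3, KO replicate 4 or WT replicate 4. The Pou4f1 and Eya2 calls were also lost without KO replicate 2, WT replicate 2 or WT replicate 3, and the Pou4f1 call without KO replicate 1 (adjusted p of 0.0511 to 0.141 over all these fits). Whether the lower neuronal markers bear on the Egr2 difference was not tested.

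All 15 mesenchyme genes and 11 of 12 skeletal muscle genes had log2 fold changes above 0, with medians of 0.15 and 0.29, and none was called. Smallest in p among them were Pdgfra (log2 fold change 0.16), Dcn (0.25) and Nkx3-2 (0.29) for mesenchyme and Myod1 (0.34), Des (0.28) and Myl4 (0.27) for muscle, with edgeR adjusted p of 0.53 to 0.76. The mesenchyme list summed to 5136 to 5880 CPM in KO and 4266 to 5429 CPM in WT, and the muscle list to 1017 to 1494 CPM in KO and 919 to 1086 CPM in WT. The mean log2 CPM over both lists was 6.40, 6.49, 6.52 and 6.68 in KO replicates 1 to 4 and 6.27, 6.39, 6.36 and 6.27 in WT replicates 1 to 4. Every KO library scored above every WT library, at 6.395 or more in KO and 6.385 or less in WT. Score and genotype therefore cannot be told apart in these libraries. With this score as a covariate Egr2 had a log2 fold change of 0.98 (SE 0.21) and was not called. In that fit 1 gene in all passed, Prdm12. The part of muscle and mesenchyme RNA in the Egr2 difference was not tested.

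Of 15 neural tube progenitor genes, which share cells with Fabp7, none was called and 4 were above 0. Their summed level was 2984 to 3143 CPM in KO and 3127 to 3448 CPM in WT, and their median log2 fold change was −0.10, or −0.02 without WT replicate 1. Hes5, a NOTCH target, was at −0.21, much like Fabp7, and Dbx1, a progenitor homeobox factor, was at 0.25. Their part in the Fabp7 values was not tested. Of 10 tested motor neuron genes, which can share cells with Pou3f1, Lhx3, a LIM homeobox factor of motor neurons and V2 interneurons, rose (log2 fold change 0.56, SE 0.08, edgeR adjusted p = 0.0169), and 9 did not pass. Among those 9, Isl2, a LIM homeobox factor, had a log2 fold change of −0.42 and all KO libraries below all WT libraries (adjusted p = 0.0916), and Lhx4, a relative of Lhx3, had 0.25 and all KO libraries above (adjusted p = 0.327). The Lhx3 call was lost without KO replicate 3, WT replicate 2 or WT replicate 4 (adjusted p of 0.0622 to 0.0681).

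Lists of other crest derivatives and of vessels held no called gene. Of 11 pericyte genes, which share cells with Foxs1, Heyl, a NOTCH target, had a log2 fold change of −0.23 (edgeR adjusted p = 0.608) and Rgs5 and Acta2 had 0.41 and 0.32 (adjusted p = 0.731 for each), and the median was 0.05. The 5 tested melanoblast genes, which share cells with Ednrb, had a median of 0.24, or 0.06 if WT replicate 1 was left out, with Kit, a receptor gene, at −0.12, Mitf, the lineage's transcription factor, at 0.35 and Pmel, a pigment protein gene, at 0.27. The 7 autonomic neuron genes had a median of 0.24, or 0.12 without WT replicate 1, with Gata3 at 0.52, Hand2 at 0.30 and Dbh at 0.33. Of these, Gata3, a transcription factor, had all KO libraries above all WT libraries (edgeR adjusted p = 0.273). The 11 endothelial genes had a median of 0.02, with Sox17 at −0.22, Esam at 0.10 and Sox18 at 0.09.

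The nearest tested genes on either side of each of the 8 genes, with 1 overlapping gene that was tested, made 17 neighbours, of which 1 was called. Ado, which lies on the opposite strand with its nearest end 2322 bases from Egr2, had 84.0 ± 2.37 CPM in KO and 83.0 ± 2.72 CPM in WT (SD, n = 4 each; log2 fold change 0.02, edgeR adjusted p = 0.976). Nrbf2, 250169 bases away on the other side, had a log2 fold change of −0.05. Neither neighbour of Egr2 was called.

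Gm10863, a non-coding gene on the strand opposite to Sox10 and 800 bases from it, had 0.998 ± 0.385 CPM in KO and 0.622 ± 0.158 CPM in WT (SD, n = 4 each; log2 fold change 0.73, edgeR adjusted p = 0.731). Dhh overlaps Rhebl1 on the same strand, and the sources used here do not say how shared reads were counted, so reads of these genes cannot be told apart with certainty. Rhebl1 had 7.57 ± 0.854 CPM in KO and 7.86 ± 0.452 CPM in WT. The called neighbour was Pou4f1, 617273 bases from Ednrb.

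Among 14278 genes with a mean of at least 1 CPM, likeness to Egr2 was measured as the root-mean-square difference of mean-centred log2 CPM over the 8 libraries. Its median over these genes was 0.552. The 5 most alike included Sox14, a factor of V2 interneurons (0.186), C1ql4, which encodes a secreted C1q-like protein (0.194), Evx1os, a transcript on the opposite strand to Evx1 (0.238), and Col20a1, a collagen gene (0.256). Col20a1 had 13.3, 16.3, 13.5 and 12.1 CPM in KO replicates 1 to 4 and 5.84, 9.89, 8.51 and 8.10 CPM in WT replicates 1 to 4, without overlap. Its log2 fold change was 0.78 (SE 0.15, edgeR adjusted p = 0.0916), so it was not called. Sox14, C1ql4 and Evx1os were called higher, at log2 fold changes of 0.82, 0.77 and 1.09 (edgeR adjusted p = 0.0351, 0.031 and 0.00778). Their calls held in 8, 9 and 16 of the 17 alternatives. As the likeness uses the group difference, it is a description and nothing is read from these calls.

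The 5 genes most like Sox10 were Afap1l2 (0.037), Camk1g (0.056), Kirrel3 (0.056), Kcnk3 (0.059) and Ebf4 (0.060), where the median over all compared genes was 0.213. Each had its lowest level of all 8 libraries in WT replicate 1. Afap1l2, an actin-filament-associated protein gene, had 26.3, 29.5, 25.8 and 26.0 CPM in KO replicates 1 to 4 and 18.4, 26.8, 26.7 and 24.4 CPM in WT replicates 1 to 4. None of the 5 was called.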

How the data were processed

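Total RNA of the dissected tissue was sequenced in 8 libraries. Each library has 1 deposited table of raw counts for every gene. Tools listed in the submitters' processing notes were DESeq2 1.8.2, featureCounts 1.4.6-p1, STAR 2.3.0e, FastQC 0.10.1 and SAMtools 0.1.18, and the listed build was mm10. The sources used here do not give the strand setting, annotation release or handling of shared reads.

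Each file held 38355 genes and 5 summary rows of 0 counts, which were left out. Symbols, coordinates and exon lengths came from GENCODE M21, in which 36602 identifiers matched, and the unmatched held 0.263% of counts. Symbols Slc18a3 and Drgx were not used here. Groups followed the sample titles. No libraries of a group agreed within sampling noise.

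The KO and WT comparison used edgeR 4.0.16 (R 4.3.3) with filterByExpr, TMM scaling and a robust quasi-likelihood fit on group. Calls had a Benjamini-Hochberg adjusted p under 0.05 across 16068 genes. SE is the size of the log2 fold change over the square root of F. Read depth limits precision most for Foxs1, Dhh and Egr2. On counts simulated for this comparison (15926 genes tested), 75.8% of 62 genes changed 1.5-fold and 92.9% of 70 changed 2-fold were recovered, and 8.16% of calls were genes simulated unchanged. The changed genes were drawn only from those with a mean above 1 CPM, so these rates do not cover Foxs1. They were not split by level, so they do not give the recovery at the low levels of Dhh and Egr2. The genes, the 19 lists and the tests were chosen with earlier results of these data known. Named were the 8 genes, from each list the called genes and up to 3 with the smallest p, neighbours, and the 5 most alike to Egr2 and to Sox10. Egr3, Egr4, Art3, Ngfr, Erbb2, Rhebl1 and others outside that rule were chosen after their values were seen, and some genes named by the rule are not reported. Tried as alternatives were DESeq2 1.42.0, limma-voom (limma 3.58.1), other scalings, other filters, a replicate term, a muscle and mesenchyme covariate, WT replicate 1 thinned, fits without each library, and another exon length. Figures used matplotlib 3.10.9.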

Additional observations from a re-analysis of the deposited data

Results flagged for a closer look

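Single libraries stood apart within their group of 4, by Dixon's criterion at the 95% level, in 11 of 184 groups of values examined, and chance flags about 1 in 20 such groups. The total count of WT replicate 1 was 67782435, where the other WT libraries held 25490087 to 28500792. Ednrb was at 161 CPM in KO replicate 4, where the other KO libraries were at 205 to 213 CPM. Pou4f1 was at 58.2 CPM and Nkx3-2 at 17.97 CPM in the same KO library, where the others were at 67.2 to 68.1 CPM and 13.2 to 13.9 CPM.

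In WT replicate 1, Foxd3 was low at 22.3 CPM and Gli1 low at 49.6 CPM, while Tpx2, a mitotic spindle gene beside Foxs1, was high at 298 CPM and Utp11, beside Pou3f1, high at 51.7 CPM. In KO replicate 2, Nrg1 was high at 14.4 CPM, Afap1l2 high at 29.5 CPM and Lmbr1l, beside Dhh, high at 38.8 CPM.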

How the results depend on the processing

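The log2 fold change of Egr2 stayed above 0 in all 17 alternatives, between 0.98 and 1.14, and between 1.01 and 1.14 in the fits without 1 library. Sox10 (0.06 to 0.23) and Fabp7 (−0.27 to −0.005) also kept their sign in all 17, while Erbb3 (−0.02 to 0.18), Foxs1 (−0.62 to 0.18), Dhh (−0.04 to 0.25), Ednrb (−0.14 to 0.06) and Pou3f1 (−0.06 to 0.08) did not. Egr2 was the 1 gene of the 8 called in 15 of the alternatives and 0 of the 8 were called with the replicate block or with a covariate for muscle and mesenchyme. Egr2 was chosen with this contrast known and the alternatives reuse the same libraries, so nothing is read from these calls. Over all genes, 9 were called higher and 39 lower; DESeq2 gave 20 and 81, limma-voom 23 and 102, the replicate block 2 and 14, and the covariate 0 and 1 (200 and 278 at an unadjusted p under 0.05). Leaving out 1 library gave 3 to 21 higher and 12 to 112 lower, the highest of each without WT replicate 1. Of the list genes 6 were called, against 11 with DESeq2, 10 with limma-voom, 1 with the replicate block, 0 with the covariate and 1 to 11 without 1 library. The cause of these shifts was not tested. Same-numbered KO and WT libraries did not deviate together in all pairs (correlations of −0.11, 0.28, −0.19 and −0.01 across genes), so the numbers were not taken as pairs. With the longest transcript as length, Egr2 was at 1.26 RPKM in KO and 0.597 RPKM in WT. Depth limits Foxs1, Dhh and Egr2, which rest on 11 to 116 reads per library.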
